A study of Mus musculus with 6 samples.

Results

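Among the genes that cardiomyocytes (CMs) transcribed strongly, 132 had at most 0.6 times the GFP level in both batches after overexpression (OE) of YAP5SA. They were selected on the RNA-seq counts themselves: a mean of at least 50 CPM (the count of a gene divided by all gene counts of its library, times 1e+06) over the 2 GFP libraries, and a YAP5SA/GFP ratio of CPM of at most 0.6 within batch 1 and within batch 2. Of the 54532 genes counted, 4216 had that level in GFP, and the 132 chosen genes made up 3.13% of these. They included genes of fatty acid oxidation, mitochondria and peroxisomes, of membrane excitation, of the Z-disc and of transcriptional control. Since YAP5SA and GFP values chose them, their YAP5SA/GFP values are given as a description, and their values in YAP6SA OE CMs are what the selection did not use.

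The hearts came from wildtype ICR mice that had received AAV9 under the skin when 6 d old, at a dose of 1e+11 viral genomes, and that were 9 d old at collection. The virus carried GFP, YAP6SA or YAP5SA under the cardiac troponin T (cTnT) promoter, which is active in CMs. YAP5SA is a form of YAP whose LATS1/2 phosphorylation sites are changed from serine to alanine, and YAP6SA carries 1 more such change that interrupts its binding to TEAD factors. CM nuclei were enriched with an antibody to PCM-1, and non-directional libraries were made from the poly-A fraction of nuclear RNA, with 2 libraries for each of the 3 groups, 1 in each of 2 batches.

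YAP is a transcriptional coactivator that the Hippo kinases LATS1/2 keep out of the nucleus, and the TEAD factors are its main DNA-binding partners. After birth, mouse CMs leave the cell cycle and move from glycolysis to the oxidation of fatty acids as their main fuel. This postnatal program is driven by nuclear receptors such as the estrogen-related receptors and the PPARs with their PGC-1 coactivators, and it comes with the maturation of ion channels, Z-discs and mitochondria.

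The 6 libraries held 14552847 to 19615627 gene counts, and the smallest count of any chosen gene in any library was 121. Mouse *Yap1* lay between 106 and 144 CPM in all 6 libraries and was called different from GFP in neither variant (edgeR quasi-likelihood test, FDR of 0.952 for YAP6SA and 0.495 for YAP5SA), and whether reads of the viral cassette are counted on it was not tested. The summed CPM of 10 CM markers (*Tnnt2*, *Tnni3*, *Myh6*, *Actn2*, *Ryr2*, *Ttn*, *Mybpc3*, *Myl2*, *Pln* and *Pcm1*) in YAP5SA was 0.838 times GFP in batch 1 and 0.493 times GFP in batch 2, and in YAP6SA it was 0.926 and 0.940 times GFP. The abundant *Myh6*, *Tnnt2*, *Mybpc3* and *Ttn* carried most of this sum, and single markers differed: the YAP5SA/GFP ratio ran from 0.621 (*Pln*) to 1.41 (*Pcm1*, the antigen of the pulldown) in batch 1 and from 0.343 (*Myh6*) to 1.13 (*Pcm1*) in batch 2. None of these markers was at 0 in any library. The summed markers of fibroblasts, endothelial cells, macrophages and mural cells were 1.07 to 1.63 times GFP in YAP5SA and 1.06 to 1.30 times GFP in YAP6SA, and those of erythroid cells were 0.988 and 0.591 times GFP in YAP5SA and 1.30 and 0.428 times GFP in YAP6SA.

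In YAP5SA OE CMs the chosen genes had a median of 0.547 times the GFP CPM in batch 1 and 0.402 times in batch 2, whereas the medians over all 4216 abundant genes were 0.961 and 0.953. The ratio was lower in batch 2 for 116 of the 132 genes. Batch 1 set the membership: 162 abundant genes were at or under 0.6 in batch 1 and 532 in batch 2, and 400 met the limit in batch 2 only. In batch 2, 99 of the 132 genes had a lower YAP5SA/GFP ratio than the summed CM markers, as did 6.69% of the abundant genes. When CPM was divided by the summed CM markers, 11 genes still met both limits, namely *Kcnip2*, *Mapt*, *Mlxipl*, *Efnb3*, *Syt7*, *Cpeb3*, *Inpp5j*, *Asb10*, *Phf24*, *6820408C15Rik* and *Synpo2*. Fewer CM nuclei and less RNA of a gene per nucleus cannot be told apart in these bulk samples, and the part of the marker change in the values below was not tested. The edgeR fit called all 132 genes lower in YAP5SA than in GFP, beside 9.18% of the 13323 genes tested, which follows from how they were chosen.

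**Figure D1:**
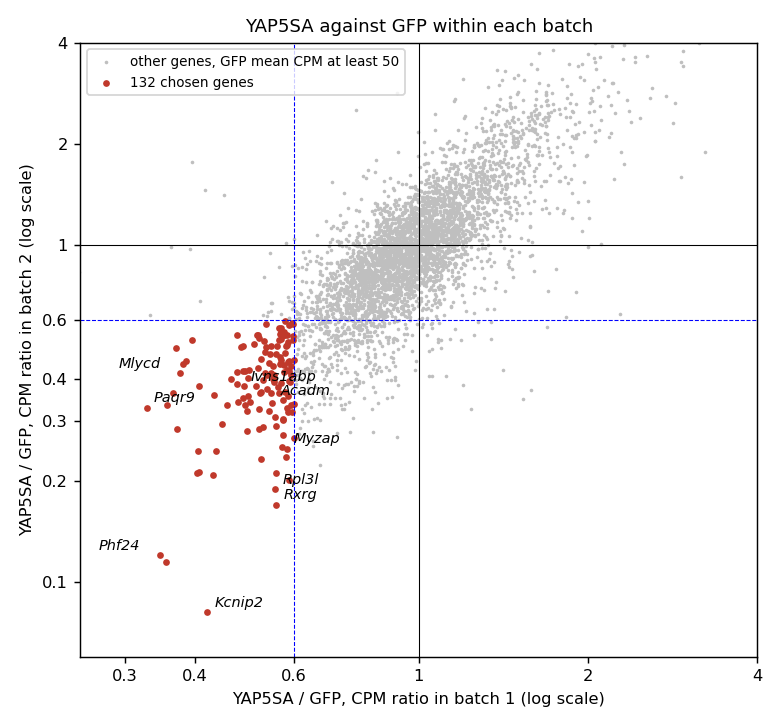
YAP5SA/GFP ratio of CPM in batch 1 (horizontal axis) and batch 2 (vertical axis), both on log scales, for the 132 chosen genes (red) and the 4084 other genes with a mean GFP CPM of at least 50 (grey, of which 37 lie outside the axes). Dashed lines mark 0.6 and solid lines 1: the red points crowd against the batch 1 limit and spread down to 0.0815 in batch 2.

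Together the chosen genes took 4.19% of all gene counts in GFP batch 1 and 3.86% in GFP batch 2, and this share was 3.28% and 3.41% in YAP6SA and 2.19% and 1.49% in YAP5SA. In what follows, paired values are always those of batch 1 and then batch 2. Their mean GFP level ran from 50.5 to 9309 CPM with a median of 125 CPM. *Ivns1abp*, which encodes an actin-binding Kelch protein, had 9557 and 9062 CPM in GFP, 7389 and 7849 CPM in YAP6SA and 4668 and 3457 CPM in YAP5SA, and alone took 0.956% and 0.906% of the GFP counts. It lies on chromosome 1 of GRCm38 (151344477 to 151364422, plus strand), and its groups did not overlap. Per kilobase of exon it was also the highest of the 132, at 1713 CPM per kb in GFP against a median of 31.6 CPM per kb.

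The largest functional group was fatty acid uptake and oxidation, with 13 of its 33 abundant genes among the chosen. *Acadm* (GRCm38 chromosome 3, 153922357 to 153944632, minus strand), the medium-chain acyl-CoA dehydrogenase of mitochondrial β-oxidation, had 1137 and 1075 CPM in GFP, 699 and 866 CPM in YAP6SA and 628 and 432 CPM in YAP5SA. *Acsl1*, which activates long-chain fatty acids to their CoA esters, had 672 and 641 CPM in GFP, 432 and 445 CPM in YAP6SA and 333 and 207 CPM in YAP5SA. In both genes the groups did not overlap, and YAP6SA lay between GFP and YAP5SA. *Ucp3*, a mitochondrial carrier linked to fatty acid use, followed the same order with 569 and 617 CPM in GFP, 326 and 494 CPM in YAP6SA and 245 and 221 CPM in YAP5SA. *Hadh*, the hydroxyacyl-CoA dehydrogenase of the same spiral, had 538 and 534 CPM in GFP, 373 and 515 CPM in YAP6SA and 322 and 181 CPM in YAP5SA, so its YAP6SA library of batch 2 was close to GFP.

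The carnitine shuttle, which moves fatty acids into mitochondria, was represented by the plasma membrane carnitine transporter *Slc22a5*, the carnitine palmitoyltransferases *Cpt1a* and *Cpt1b* and the carnitine-acylcarnitine carrier *Slc25a20*. *Cpt1b*, the muscle form of the entry enzyme, had 48.3 and 60.7 CPM in GFP, 64.3 and 61.0 CPM in YAP6SA and 28.4 and 25.7 CPM in YAP5SA. It lies on chromosome 15 (89416405 to 89425863, minus strand). It was the 1 chosen gene with both YAP6SA libraries above both GFP libraries, as were 12.2% of the abundant genes. *Mlycd*, the malonyl-CoA decarboxylase that relieves the block on this entry step, had 220.4 and 164 CPM in GFP, 147 and 148 CPM in YAP6SA and 83.0 and 68.4 CPM in YAP5SA. The other chosen genes of the list were *Hadhb* and *Eci1* of the β-oxidation spiral, *Etfdh*, which passes its electrons to the respiratory chain, and *Plin5*, which encodes a lipid droplet coat protein.

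Across the whole fatty acid list of 43 genes, 42 were tested, of which 31 were lower and 0 higher in YAP5SA than in GFP (edgeR, FDR under 0.05), beside 9.18% of all genes tested that were lower and 12.8% that were higher. The 31 held the 13 chosen genes, whose calls follow from the selection. The YAP5SA counts of the other lists likewise hold their chosen genes. The median log2 fold change of the fatty acid list in YAP5SA was -0.83 against -0.0031 for all genes tested. The 20 abundant genes of the list that were not chosen had a larger ratio of the 2 batches between 0.620 and 1.18, and 5 of them were at or under 0.6 in batch 2. Their median log2 fold change in YAP5SA was -0.68, against -0.14 for all abundant genes that were not chosen. In YAP6SA, 0 of the 42 were called in either direction by edgeR. At an unadjusted p under 0.05 (edgeR), 8 were lower and 2 higher, beside 2.07% and 3.86% of all genes tested. The median log2 fold change of the fatty acid list in YAP6SA was -0.15 against 0.0018 for all genes tested. For the respiratory chain, 0 of 60 abundant genes were chosen, and 6 of its 79 genes were lower and 9 higher in YAP5SA. In YAP6SA, 0 of these 79 were called in either direction by edgeR. At an unadjusted p under 0.05 (edgeR), 0 were lower and 25 higher in YAP6SA, and their median log2 fold change was 0.31. Of the tricarboxylic acid cycle and amino acid oxidation list, 1 of 32 abundant genes was chosen, the aspartate aminotransferase *Got1*, and 15 of 49 tested were lower and 0 higher in YAP5SA. *Got1* had 214 and 193 CPM in GFP, 202 and 165 CPM in YAP6SA and 127 and 79.4 CPM in YAP5SA.

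**Figure D2:**
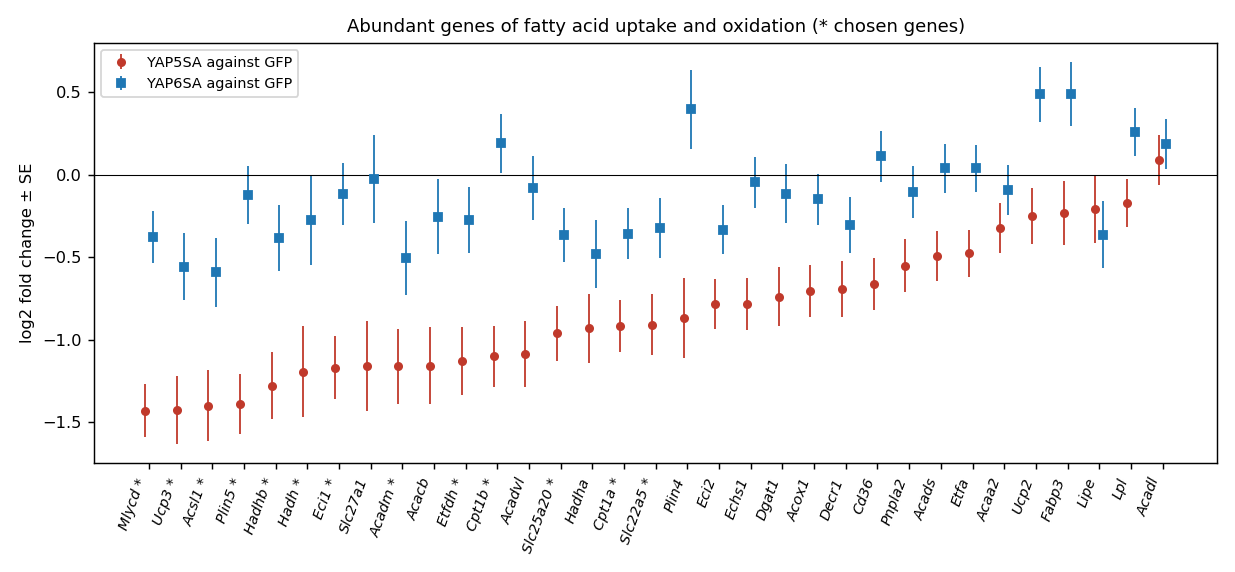
Log2 fold change ± SE of the 33 abundant genes of fatty acid uptake and oxidation in YAP5SA (red circles) and YAP6SA (blue squares) against GFP, from the edgeR fit of 6 libraries, ordered by the YAP5SA value. Asterisks mark the 13 chosen genes: their YAP5SA values run from -1.43 to -0.91 and their YAP6SA values from -0.59 to 0.19.

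Since the estrogen-related receptor gene *Esrra* and the retinoid receptor gene *Rxrg* were themselves among the 132, promoters were searched for AAGGTCA, the half-site that these and other nuclear receptors bind, on both strands from 250 bases before to 50 bases after the RefSeq start. The RefSeq table (GRCm38.p6) held promoters for 104 of the 132 genes, which is too few for a comparison of shares, so the search is void as a comparison and is given as a description. The motif was in 11 of these 104 genes, in 4.14% of the 3453 abundant genes with a promoter and in 5.38% of all 27025 genes with one. The 11 were *Acadm*, *Mlf1*, *Vipas39*, *Got1*, *Rpl3l*, *Fam160a1*, *Phf24*, *Fam13a*, *Slc25a34*, *6820408C15Rik* and *Rxrg*. *Acadm* was the only gene of the fatty acid list among these 11. Printed here are the promoter of *Acadm*, the most abundant fatty acid enzyme of the set, at chr3:153944594-153944893 on the minus strand, and that of *Mlf1*, 1 of the genes lowest in YAP6SA, at chr3:67373847-67374146 on the plus strand, written 5′ to 3′ with the motif in capitals (on the opposite strand it reads TGACCTT).
Acadm: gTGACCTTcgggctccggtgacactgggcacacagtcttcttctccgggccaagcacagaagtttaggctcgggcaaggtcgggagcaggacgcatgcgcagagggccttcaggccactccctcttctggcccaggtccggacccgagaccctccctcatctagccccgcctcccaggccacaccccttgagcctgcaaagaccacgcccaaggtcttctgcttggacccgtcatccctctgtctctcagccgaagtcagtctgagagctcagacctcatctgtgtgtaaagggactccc
Mlf1: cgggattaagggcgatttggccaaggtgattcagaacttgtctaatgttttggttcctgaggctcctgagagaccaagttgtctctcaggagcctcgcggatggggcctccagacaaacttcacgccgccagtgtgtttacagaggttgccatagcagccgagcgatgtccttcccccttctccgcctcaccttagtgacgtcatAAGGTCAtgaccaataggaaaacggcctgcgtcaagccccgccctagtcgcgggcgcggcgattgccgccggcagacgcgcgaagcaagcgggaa

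Motif matches mark letters and not bound sites. The motif of *Mlf1* began 45 bases before the start and that of *Acadm* 249 bases before it, at the edge of the window. The TEAD motif GGAATG was in 16 of the 104 genes and in 14.3% of the abundant genes. The GATA motif AGATAA was in 8 of the 104 and 6.89% of the abundant genes, the E-box CACGTG in 11 and 12.7%, a MEF2 site in 9 and 2.98%, and an SRF CArG box in 1 and 1.97%.

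Peroxisomes, which shorten very long fatty acids, were represented by 5 chosen genes, among them the fatty acyl transporter *Abcd3*, the division factor *Pex11a*, the CoA hydrolase *Nudt7* and catalase (*Cat*). This and the following groups outside the lists were formed by role after the members were known and carry no test. *Abcd3* had 959 and 858 CPM in GFP, 708 and 744 CPM in YAP6SA and 534 and 407 CPM in YAP5SA. *Pex11a* had 113 and 88.3 CPM in GFP, 66.2 and 78.9 CPM in YAP6SA and 41.2 and 32.2 CPM in YAP5SA, so the ratio to GFP in YAP5SA was alike in both batches, at 0.366 and 0.365. In all 5 genes YAP6SA was below GFP in both batches, beside 77.3% of all chosen genes and 40.9% of the abundant genes. The median YAP6SA/GFP ratios of the 5 genes were 0.696 and 0.893.

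A further 12 chosen genes were grouped as serving mitochondria in other ways, and this grouping was not exhaustive. *Cluh*, whose product binds the mRNAs of mitochondrial proteins, had 1918 and 1769 CPM in GFP, 1470 and 1608 CPM in YAP6SA and 1121 and 798 CPM in YAP5SA. The group also held the carriers *Slc25a22* (glutamate), *Slc25a42* (CoA) and *Slc25a34*, the deacetylase *Sirt3*, the acetyl-CoA synthetase *Acss1*, the kinesin adaptor *Trak2* and the protein kinase A anchor *Akap1*. Their median ratios were 0.556 and 0.440 in YAP5SA and 0.792 and 0.934 in YAP6SA. In 6 of the 12 YAP6SA was below GFP in both batches, beside 77.3% of all chosen genes and 40.9% of the abundant genes. *Slc25a42* had 171 and 145 CPM in GFP and 133 and 166 CPM in YAP6SA, on either side of GFP, beside 91.3 and 60.5 CPM in YAP5SA.

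Among regulators of metabolism, 4 of 27 abundant genes were chosen. *Esrra*, the estrogen-related receptor α, had 710.4 and 582 CPM in GFP, 535 and 560.2 CPM in YAP6SA and 397 and 292 CPM in YAP5SA. *Mlxipl*, the glucose-sensing factor ChREBP, had 263 and 240.5 CPM in GFP, 186 and 191 CPM in YAP6SA and 106 and 59.1 CPM in YAP5SA, with no overlap between any of the groups. *Ppargc1b*, the PGC-1β coactivator, had 86.2 and 82.5 CPM in GFP, 80.1 and 58.4 CPM in YAP6SA and 42.9 and 33.4 CPM in YAP5SA.

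The retinoid X receptor γ gene *Rxrg* had 67.5 and 56.1 CPM in GFP, 67.3 and 55.1 CPM in YAP6SA and 37.7 and 9.54 CPM in YAP5SA, so YAP6SA was at 0.996 and 0.982 times GFP. In the list of cardiac transcription factors, 2 of 24 abundant genes were chosen, the ventricular homeobox gene *Irx4* and *Prox1*. *Irx4* had 358 and 366 CPM in GFP, 287 and 378 CPM in YAP6SA and 202 and 134 CPM in YAP5SA. Across the list of 44 nuclear receptors and metabolic regulators, 13 genes were lower and 2 higher in YAP5SA than in GFP, and in YAP6SA 0 were lower and 1 was higher, the immediate-early receptor gene *Nr4a1*, which was not among the 132. Outside the lists stood the nuclear factors *Zbtb20*, *Ddit3*, *Satb1* and *Tshz1*. All 4 were below GFP in YAP6SA in both batches, as were 77.3% of the 132 genes and 40.9% of the abundant genes.

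Genes of membrane excitation held the lowest YAP5SA/GFP ratio of the set in batch 2, that of *Kcnip2* at 0.0815, while in batch 1 its ratio was 0.421 and the lowest was that of *Paqr9* at 0.328. *Kcnip2*, the KChIP2 subunit of the transient outward potassium channel, had 465 and 600.0 CPM in GFP, 538 and 559.8 CPM in YAP6SA and 195 and 48.9 CPM in YAP5SA. The YAP5SA libraries thus lay far apart, both under every other library, while GFP and YAP6SA overlapped. The gene lies on chromosome 19 (45791839 to 45816061, minus strand). *Kcnj2*, the inward rectifier that holds the resting potential, had 62.7 and 45.3 CPM in GFP, 49.96 and 50.5 CPM in YAP6SA and 22.4 and 15.2 CPM in YAP5SA. In the ion channel list, 2 of 24 abundant genes were chosen and 18 of 51 tested were lower and 5 higher in YAP5SA than in GFP.

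*Asph*, whose locus also encodes the calcium store proteins junctin and junctate, had 648 and 569 CPM in GFP, 689 and 585 CPM in YAP6SA and 371 and 172 CPM in YAP5SA. Of cyclic AMP signalling, 3 of 18 abundant genes were chosen, and *Adcy6*, a main adenylyl cyclase of CMs, had 879.8 and 923 CPM in GFP, 699.6 and 734 CPM in YAP6SA and 497 and 429 CPM in YAP5SA. *Pde4a*, a phosphodiesterase that degrades cyclic AMP, had 216 and 247 CPM in GFP, 160.3 and 220.2 CPM in YAP6SA and 124 and 75.5 CPM in YAP5SA. The gap junction gene *Gja3* was also chosen, at 58.8 and 48.9 CPM in GFP and 29.9 and 24.8 CPM in YAP5SA.

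Of the sarcomere and Z-disc list, 5 of 60 abundant genes were chosen, *Ablim1*, *Myzap*, *Xirp2*, *Alpk2* and *Synpo2*, which are actin-binding, disc-associated and kinase genes. No myosin, troponin or titin gene was chosen, but several were below GFP in YAP5SA. *Myh6* had 0.751 and 0.343 times the GFP CPM, *Ttn* 0.728 and 0.541 and *Tnni3* 0.836 and 0.475, so these missed the limit in batch 1 only. *Tnnt2* (0.999 and 0.671) and *Myl2* (1.10 and 0.866) missed it in both batches. *Ablim1*, an actin-binding LIM protein, had 1381 and 1060 CPM in GFP, 980.4 and 945 CPM in YAP6SA and 714 and 575 CPM in YAP5SA. *Xirp2*, which encodes an actin-binding protein of the intercalated disc, had 183 and 176 CPM in GFP, 141 and 144 CPM in YAP6SA and 98.1 and 87.9 CPM in YAP5SA. In both genes the 3 groups did not overlap. *Alpk2*, an α-kinase gene, had 118 and 120.0 CPM in GFP, 108 CPM in both YAP6SA libraries and 62.0 and 34.7 CPM in YAP5SA. *Synpo2*, a Z-disc actin-binding protein, had 73.4 and 45.3 CPM in GFP, 43.5 and 39.2 CPM in YAP6SA and 27.3 and 12.9 CPM in YAP5SA. *Myzap* had 496 and 712 CPM in GFP, 483 and 527 CPM in YAP6SA and 289 and 177 CPM in YAP5SA.

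The microtubule genes *Mapt* (tau), *Tuba4a* (an α-tubulin) and *Rmdn1* (a regulator of microtubule dynamics) were chosen as well. *Mapt* had 420.5 and 277 CPM in GFP, 246 and 268 CPM in YAP6SA and 171 and 59.0 CPM in YAP5SA. Its GFP libraries differed between batches, and both YAP6SA libraries were below both of them. Further muscle genes were *Rpl3l*, a ribosomal protein of striated muscle, *Dhrs7c*, *Dok7*, *Lrrc2*, *Fsd2*, *Ky* and *Klhl33*. Of these 7 genes 6 were below GFP in YAP6SA in both batches, beside 77.3% of all chosen genes and 40.9% of the abundant genes. *Rpl3l* had 159 and 179.7 CPM in GFP, 157 CPM in both YAP6SA libraries, and 88.6 and 33.9 CPM in YAP5SA.

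Iron metabolism was represented by *Tfrc*, the transferrin receptor, and by *Hfe2*, the hemojuvelin gene. *Tfrc* had 1153 and 1005 CPM in GFP, 988 and 939 CPM in YAP6SA and 649 and 381 CPM in YAP5SA. *Hfe2* had 289.6 and 233 CPM in GFP, 203 and 225 CPM in YAP6SA and 155 and 87.3 CPM in YAP5SA. Glycogen turnover was represented by the phosphorylase *Pygm* and the synthase *Gys1*, 2 of 31 abundant genes of the glucose list. *Pygm* had 648 and 652 CPM in GFP, 496 and 581 CPM in YAP6SA and 368 and 254 CPM in YAP5SA. *Gys1* had 175 and 128 CPM in GFP, 122 and 123 CPM in YAP6SA and 83.4 and 69.2 CPM in YAP5SA. In both glycogen genes YAP6SA was below GFP in each batch, as it was in 77.3% of all chosen genes. The AMP deaminase gene *Ampd3*, 1 of 16 abundant genes for creatine and adenylate metabolism, had 128 and 80.0 CPM in GFP, 88.6 and 90.8 CPM in YAP6SA and 66.0 and 43.3 CPM in YAP5SA.

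Substrate adaptors of muscle ubiquitin ligases were represented by *Asb10* and *Asb15*, 2 of 32 abundant genes of their list. *Asb15* had 96.2 and 97.1 CPM in GFP, 57.1 and 66.7 CPM in YAP6SA and 47.1 and 32.5 CPM in YAP5SA, and its groups did not overlap. *Asb10* had 122 and 115 CPM in GFP, 126 and 95.0 CPM in YAP6SA and 53.3 and 28.1 CPM in YAP5SA, with YAP6SA on either side of GFP. Of the RNA-binding regulators, *Rbpms2* and *Cpeb3* were 2 of 31 abundant genes.

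**Figure D3:**
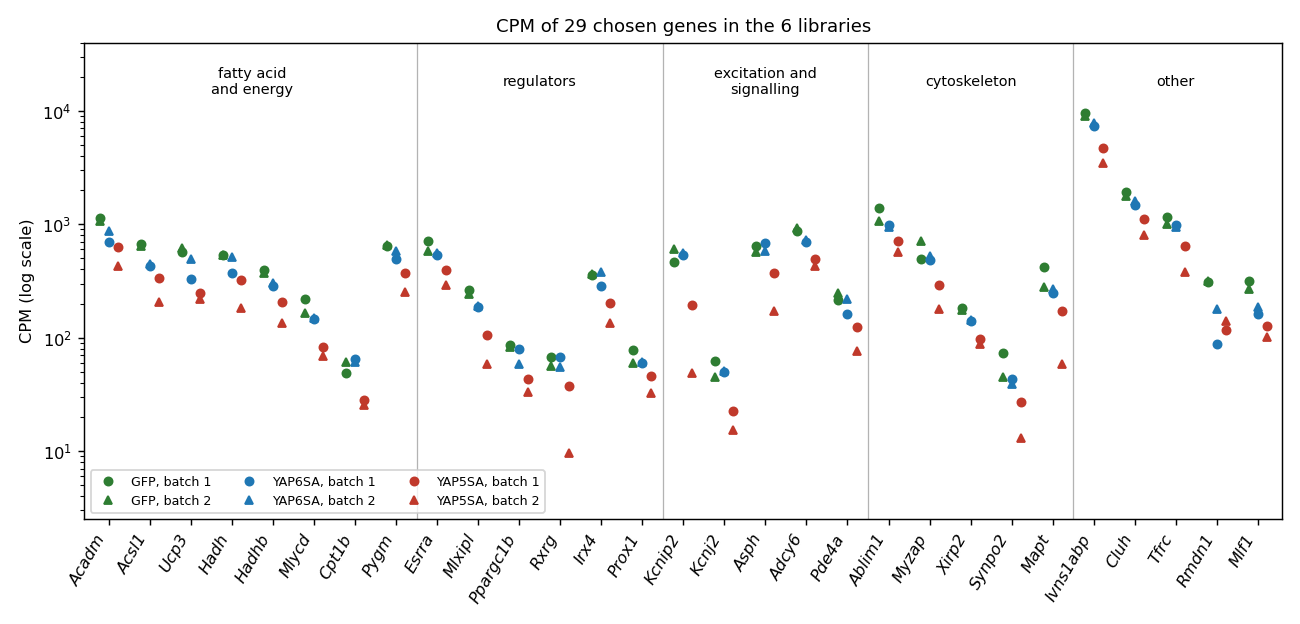
CPM on a log scale of 29 of the 132 chosen genes in each of the 6 libraries, grouped by role, with circles for batch 1 and triangles for batch 2. In every gene shown but *Rmdn1*, whose batch 1 YAP6SA library is lowest at 88.0 CPM, both YAP5SA libraries (red) are the lowest. YAP6SA (blue) lies near or under GFP (green) in most genes shown, while *Cpt1b* has both YAP6SA libraries above both GFP libraries.

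Over whole lists, genes lower and higher in YAP5SA than in GFP (edgeR, FDR under 0.05) numbered 10 and 7 of 49 for glucose and glycogen, 6 and 2 of 19 for creatine and adenylates, 8 and 5 of 47 for cardiac transcription factors and 7 and 5 of 50 for calcium handling. They numbered 8 and 6 of 53 for adrenergic and cyclic AMP signalling, 17 and 11 of 71 for sarcomere and Z-disc, 15 and 1 of 45 for ubiquitin ligases and autophagy and 5 and 3 of 33 for RNA-binding regulators. Over all genes tested, 9.18% were lower and 12.8% higher. In YAP6SA these 8 lists held 0 genes called lower (edgeR). At an unadjusted p under 0.05 they held 0 to 2 genes lower and 1 to 10 higher a list, with the most in the sarcomere list (2 lower and 10 higher). Over all genes tested, 2.07% were lower and 3.86% higher at that threshold. The genes called higher were *Irs2* and *Srf*, neither of them among the 132.

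No gene of the lists for intercalated disc and basement membrane (0 of 49 abundant genes), growth factors and their receptors (0 of 17), Hippo pathway and TEAD (0 of 17), circadian clock (0 of 8), nuclear long noncoding RNAs (0 of 6) or skeletal muscle and fetal genes (0 of 2) was among the 132. On these lists, genes lower and higher in YAP5SA numbered 11 and 16 of 63 tested, 3 and 11 of 55, 1 and 11 of 34, 3 and 0 of 18, 1 and 4 of 14 and 1 and 5 of 9, in the same order. The chosen *Xirp2* of the intercalated disc was on the sarcomere and Z-disc list, and the chosen gap junction gene *Gja3* was on no list. The 0 of 49 thus describes the list and not every gene of the intercalated disc.

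In all, 38 of the 132 genes were on 1 of the lists, 38 were placed in the 7 groups formed by role, with 1 gene (*Akap1*) in both, and 57 were in neither. Of those 57, *Ndrg4* had 1098 and 801 CPM in GFP, 898 and 859 CPM in YAP6SA and 570.2 and 228 CPM in YAP5SA. *Phf24* had 84.2 and 89.8 CPM in GFP, 71.1 and 73.4 CPM in YAP6SA and 29.1 and 10.8 CPM in YAP5SA, and *6820408C15Rik* had 81.9 and 61.2 CPM in GFP, 62.2 and 57.6 CPM in YAP6SA and 29.1 and 7.04 CPM in YAP5SA. In both, YAP6SA was nearer to GFP than to YAP5SA. *Paqr9*, whose larger YAP5SA/GFP ratio was the lowest of the set, had 57.3 and 52.2 CPM in GFP, 30.0 and 47.0 CPM in YAP6SA and 18.8 and 17.2 CPM in YAP5SA.

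*Inpp5j*, a phosphoinositide phosphatase gene, had 131 and 120.5 CPM in GFP, 109 and 104 CPM in YAP6SA and 52.8 and 25.4 CPM in YAP5SA. *Syt7*, a synaptotagmin gene, had 183 and 157 CPM in GFP, 163 and 127 CPM in YAP6SA and 78.9 and 32.7 CPM in YAP5SA. *Lgals4*, a galectin gene, had 726 and 574 CPM in GFP, 599 CPM in both YAP6SA libraries, and 415 and 145 CPM in YAP5SA. In these 3 genes the YAP5SA library of batch 2 was the lowest of the 6 by a wide margin.

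**Figure D4:**
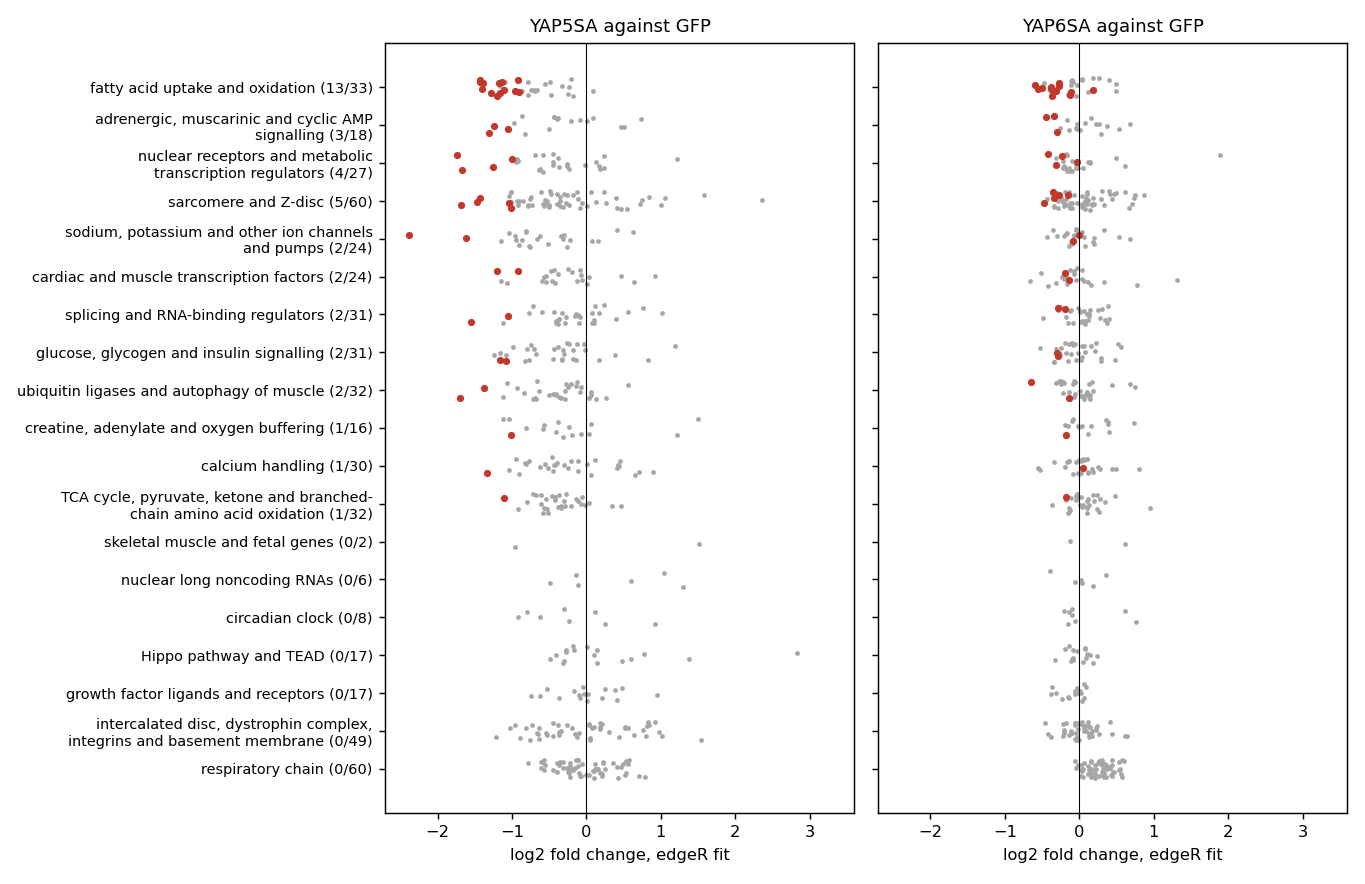
Log2 fold change of the abundant genes of each function list in YAP5SA (left) and YAP6SA (right) against GFP, from the edgeR fit, with chosen genes in red and other genes in grey, and with the number chosen of the abundant genes in parentheses. The fatty acid list holds the most chosen genes, 13 of 33, and in the right panel the chosen genes lie mostly just left of 0.

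In YAP6SA OE CMs the chosen genes were slightly below GFP as a set, and the edgeR quasi-likelihood fit of 6 libraries called no single one. The GFP libraries that selected the genes are also the reference here, so a high GFP value lowers both ratios. The median YAP6SA/GFP ratio was 0.793 in batch 1 and 0.891 in batch 2, against 0.957 and 0.976 for all abundant genes. YAP6SA was below GFP in both batches for 102 of the 132 genes (77.3%, against 40.9% of the abundant genes), below in batch 1 only for 20, below in batch 2 only for 6, and above in both for 4. Both YAP6SA libraries lay below both GFP libraries in 86 of the 132 genes, and in 25.4% of the abundant genes.

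To keep selection and measurement in separate libraries, genes were also chosen in 1 batch and measured in the other. The 167 genes chosen in batch 1 had a median YAP6SA/GFP ratio of 0.898 in batch 2, where all abundant genes had 0.980, and 77.2% of them were below GFP against 55.9%. The 543 genes chosen in batch 2 had a median of 0.920 in batch 1, where all abundant genes had 0.957, and 68.1% were below GFP against 60.5%. In YAP5SA the same genes had medians of 0.439 in batch 2 and 0.70 in batch 1.

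With edgeR's quasi-likelihood test over all 6 libraries, 0 of the 132 genes were lower and 0 higher in YAP6SA than in GFP at an FDR under 0.05, beside 0.0% of the 13323 genes tested that were lower and 0.045% that were higher. At an unadjusted p under 0.05, 24 of the 132 were lower and 0 higher, beside 2.07% of all genes tested that were lower and 3.86% that were higher. DESeq2 called 1 gene lower (*Rmdn1*), the likelihood ratio test called 2 (*Rmdn1* and *Mlf1*) and limma-voom called 0. The median fitted log2 fold change was -0.27, against -0.07 for the abundant genes. It was -0.08 without the YAP6SA library of batch 1 and -0.47 without that of batch 2. A fit of only the 4 GFP and YAP6SA libraries called 12 of the 132 lower, beside 0.585% of the genes tested, and 10 or 11 were called when the YAP5SA library of batch 1 or batch 2 was left out.

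**Figure D5:**
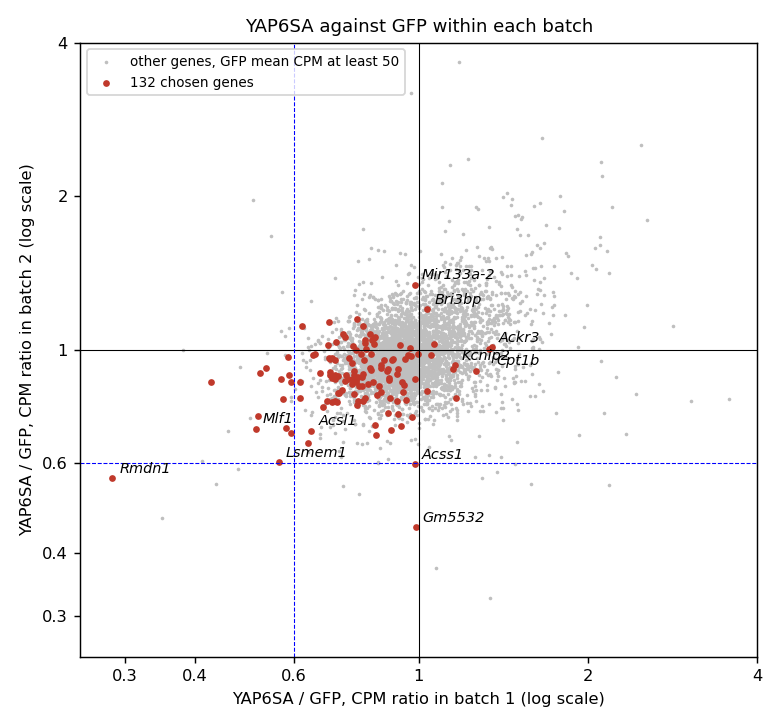
YAP6SA/GFP ratio of CPM in batch 1 (horizontal axis) and batch 2 (vertical axis), both on log scales, for the 132 chosen genes (red) and the 4084 other abundant genes (grey, of which 4 lie outside the axes). Most red points lie left of 1 and a little under it, and *Rmdn1* is the only red point under 0.6 (dashed lines) in both batches.

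*Rmdn1* stood apart, with 309 and 317 CPM in GFP, 88.0 and 178 CPM in YAP6SA and 118 and 141 CPM in YAP5SA. It is on chromosome 4 of GRCm38 (19575162 to 19606932, plus strand) and was the only chosen gene at or under 0.6 times GFP in YAP6SA in both batches, at 0.285 and 0.560. Its log2 fold change in YAP6SA was -1.32 with an SE of 0.22 (edgeR, FDR of 0.156 with 6 libraries and 1.31e-05 with 4). The FDR ran from 1.41e-10 to 0.998 over the alternatives other than the fits with 1 library left out. YAP5SA and YAP6SA differed by -0.07 with an SE of 0.22 (FDR of 0.871), and the 2 groups overlapped.

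*Mlf1*, which encodes a nucleocytoplasmic protein first known from myeloid leukemia, had 314 and 266 CPM in GFP, 161 and 187 CPM in YAP6SA and 128 and 102 CPM in YAP5SA. Its YAP6SA log2 fold change was -0.74 ± 0.17 (SE, edgeR, FDR of 0.340, and from 0.00142 to 0.998 over the same alternatives). *Lsmem1* had 61.2 and 85.5 CPM in GFP, 34.5 and 51.5 CPM in YAP6SA and 35.7 and 28.1 CPM in YAP5SA. The YAP6SA libraries of both genes lay below both GFP libraries. *Dhrs7c*, a reductase gene of the sarcoplasmic reticulum, had 114 and 113 CPM in GFP, 66.1 and 79.3 CPM in YAP6SA and 54.1 and 44.0 CPM in YAP5SA. *Pla2g4e*, a phospholipase gene, had 43.8 and 59.2 CPM in GFP, 27.8 and 38.8 CPM in YAP6SA and 25.4 and 13.9 CPM in YAP5SA.

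The 12 genes called lower in YAP6SA by the 4-library fit were *Acadm*, *Acsl1*, *Ucp3*, *Rmdn1*, *Mlf1*, *Dhrs7c*, *Satb1*, *Asb15*, *Fam13a*, *Lsmem1*, *Sema6c* and *Pla2g4e*. The first 3 belong to the fatty acid list. In that fit *Acsl1* had a log2 fold change of -0.59 ± 0.12 (SE; edgeR, FDR of 0.00901), *Ucp3* of -0.57 ± 0.13 (FDR of 0.0195) and *Acadm* of -0.51 ± 0.13 (FDR of 0.0342). With 6 libraries the same genes had FDRs of 0.707, 0.708 and 0.838 and nearly the same fold changes. Over the alternatives other than the fits with 1 library left out, their FDR reached 0.998. *Sema6c*, a semaphorin, had 72.2 and 71.6 CPM in GFP, 37.4 and 53.1 CPM in YAP6SA and 40.8 and 37.4 CPM in YAP5SA.

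At the other end, 4 genes were above GFP in YAP6SA in both batches, *Asph*, *Bri3bp*, *Cpt1b* and *Ackr3*, and none was called. *Ackr3*, an atypical chemokine receptor, had 53.6 and 52.7 CPM in GFP, 72.3 and 53.3 CPM in YAP6SA and 29.1 and 16.9 CPM in YAP5SA. *Bri3bp* had 176 and 138 CPM in GFP, 182 and 166 CPM in YAP6SA and 93.2 and 55.01 CPM in YAP5SA. *Fitm2* of lipid droplets, *Mcrip2*, *Rnf150*, *Doc2g*, *Rxrg* and *Mir133a-2* completed the 10 genes with the highest smaller YAP6SA/GFP ratio, which was at least 0.956 in each.

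*Mir133a-2* and *Gm5514* are less certain. The first is annotated as a 0.104 kb miRNA gene, and in poly-A RNA its reads cannot be told apart from those of a longer primary transcript. *Gm5514* is a processed pseudogene, whose reads cannot be fully told apart from those of its parent gene. Of the 132 genes, 51 overlapped another gene with reads, and without strand information reads in the overlap cannot be assigned.

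Set directly against each other, YAP5SA was lower than YAP6SA in 118 of the 132 genes (edgeR, FDR under 0.05), beside 5.68% of all genes tested, and 0 were higher. This comparison shares its YAP5SA libraries with the selection. Without the batch term, that is without the replicate block that pairs libraries of 1 batch, the count was 78, and without the YAP6SA library of batch 2 it was 22. In batch 1 YAP6SA was above YAP5SA in 128 genes and in batch 2 in all 132, and the 4 exceptions were *Rmdn1*, *Fam13a*, *Lsmem1* and *Sema6c*. The median YAP6SA change was 36.6% of the YAP5SA change in batch 1 and 12.6% in batch 2 on the log2 scale, and in 91 of the 132 genes YAP6SA was nearer to GFP than to YAP5SA in both batches. The rule holds YAP5SA at or under 0.6 times GFP, while the median YAP6SA/GFP ratio of all abundant genes was 0.957 and 0.976. A gene with that YAP6SA ratio would also lie above YAP5SA and nearer to GFP, so these counts largely follow from the selection.

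*Kcnip2* had the largest difference between the variants, a log2 fold change of -2.39 ± 0.48 (SE) in YAP5SA against YAP6SA (edgeR, FDR of 0.0110). *Cpt1b* differed by -1.29 ± 0.18 (FDR of 0.00224) and *Esrra* by -0.77 ± 0.19 (FDR of 0.0235). The 14 genes not called in this comparison included *Acadm* (-0.65 ± 0.23, FDR of 0.0817), *Hadh*, *Slc22a5* and *Acss2* of lipid metabolism, beside *Rmdn1*, *Slc26a6*, *Satb1*, *Fam13a*, *Lsmem1*, *Sema6c*, *Gm5514*, *Gm5532* and *Pla2g4e*.

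Across the 132 genes, the YAP6SA/GFP ratios of the batches had a Spearman correlation of 0.16, and the YAP5SA/GFP ratios one of 0.25, against 0.31 and 0.76 across all abundant genes. These are descriptions over genes that share libraries, and the rule narrows the range of the YAP5SA ratios.

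The chosen genes were 97.0% protein coding and somewhat shorter than the abundant genes. Their median genomic span was 24.6 kb against 28.8 kb, their median exonic length 4.39 kb against 5.54 kb, and their median number of exonic blocks 10 against 13. They lay on all autosomes and the X chromosome, with the largest share of abundant genes on chromosome 19 (10 of 144, 6.94%). Within 200 kb of each other lay 3 pairs, *Pik3ip1* and *Inpp5j*, *Rpl3l* and *Hagh*, and *Slc25a20* and *Slc26a6*.

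The limit of 0.6 cut through a continuous range. Just inside it were *Hadh*, *Hdhd5*, *Fsd2* and *Fam234a*, whose larger ratio rounded to 0.60, and just outside were *Slc25a51* (0.601), *Pfkfb2* (0.601), *Klhl23* (0.602) and *Crat* (0.603). *Crat*, the carnitine acetyltransferase, had 497 and 449 CPM in GFP, 381 and 358 CPM in YAP6SA and 299.6 and 190 CPM in YAP5SA. With a limit of 0.5 the set held 35 genes and with 0.7 it held 355.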

How the data were processed

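Nuclear poly-A RNA, from CM nuclei bound by anti-PCM-1, was sequenced in 6 libraries, with 2 libraries for each virus. The authors mapped the reads with STAR (version not given in the sources used here) to mm10 with the Ensembl GRCm38.94 annotation and deposited raw counts per gene, without normalization. The 4 rows that name no gene (unmapped, multimapping, outside genes, ambiguous) held 2.90% to 9.84% of reads each and were left out. Gene names and coordinates came from GENCODE M21 (GRCm38). CPM were computed over all gene counts.

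Genes with a median log2 CPM over 1 in at least 1 group (13323) were fitted with edgeR 4.0.16 (TMM, quasi-likelihood) in R 4.3.3 with terms for batch and group, as the study's methods use a batch covariate, and FDR is the Benjamini-Hochberg adjusted p over these genes. Against scaling by totals, TMM lowers the log2 YAP5SA/GFP value by 0.04 in batch 1 and 0.15 in batch 2. The batch in the labels pairs libraries of equal replicate number, and their deviations from group means correlated at 0.393 (GFP and YAP6SA), 0.111 (GFP and YAP5SA) and 0.183 (YAP6SA and YAP5SA) across genes. Replicates of a group differed by a chi-square of 25.3 to 39.6 per degree of freedom, so no library was a copy of another. The fit was tested on simulated data. DESeq2 1.42.0, limma-voom (limma 3.58.1), other scalings, filters and thresholds and fits without each library were the alternatives. P-values measure the spread between these libraries only.

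The chosen genes, the lists and the tests were fixed with earlier results of these data known. Genes were named by rule: the 12 with the highest GFP CPM, the 15 with the lowest larger YAP5SA/GFP ratio, the 10 highest and the 10 lowest in YAP6SA/GFP, those nearest the limit, and those on a list. Others were named after their values were seen, as were the 7 groups by role. Some genes and 1 list are not reported here.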

Additional observations from a re-analysis of the deposited data

How the results depend on the processing

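Of 92 alternative values, 75 kept their direction and stayed within 1.5 times the main count or 1 SD of the main median. None of the medians changed sign, and counts cannot. The count lower in YAP5SA than in GFP was largely fixed by the selection, and the count higher in YAP6SA was 0 in every setting. Much of the tally was thus settled in advance. The count of genes lower in YAP6SA than in GFP (0) was 3 when no low-count filter was used, 2 by likelihood ratio test, 1 with DESeq2 and 12 with only the 4 libraries compared, and it ran from 0 to 11 with 1 library left out. The count lower in YAP5SA than in YAP6SA (118) was 78 with no replicate block, and ran from 22 to 130 with 1 library left out, with 22 without the YAP6SA library of batch 2. The replicate block moved no other count by over 1.5 times. The median log2 fold change in YAP6SA (-0.27) ran from -0.47 to -0.080 with 1 library left out, and was -0.12 for genes chosen in batch 2 and measured in batch 1. The number of chosen genes (132) was 81 with a GFP floor of 100 CPM, 35 with a ratio of at most 0.5, 355 with 0.7, 167 by batch 1 alone and 543 by batch 2 alone, and 11 over the summed CM markers, an alternative chosen after seeing the data. With TMM or RLE effective library sizes it was 170 or 173, which held all 132. The cause of these moves was not tested, except where the alternative itself uses fewer libraries or another limit. No chosen gene had fewer than 121 counts in any library.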
